A study of Mus musculus with 60 samples.

Results

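The genes described here encode 10 proteins with which microglia, the resident macrophages of the brain, bind and take up dying cells and lipid debris, or restrain that uptake. They are Trem2, Tyrobp and Syk; the TAM receptors Axl and Mertk with their ligands Gas6 and Pros1; the scavenger receptor Cd36; and the inhibitory genes Cd33 and Inpp5d. They were chosen by name, with earlier results of these data known. All 10 were found among the 55413 gene symbols listed in each of 4 tables of RNA levels. All mice carried Spp1-CreER and the R26-Tdtomato reporter and had a stroke, and the cortex opposite the stroke served as the contralateral side. The Cre recombinase was driven by the Spp1 gene, so the red label (Tdt+) marks cells in which that recombinase had been present and active, and cells without the label are Tdt-. The labels do not give the inducing drug or its timing. Sorted microglia were compared in these groups: Tdt+ and Tdt- microglia of the stroke cortex and contralateral microglia at day 7 (postnatal day 13, 3 libraries each), the same groups at day 28 (postnatal day 34, 4 each), and the same groups at day 28 after lipopolysaccharide (LPS, a bacterial cell wall component that provokes inflammation, 4 each). A separate time course held Tdt+ libraries of days 3, 7 and 14 (postnatal days 9, 13 and 20, 5 each) and of day 28 (postnatal day 34, 4). The labels give neither the dose and timing of LPS nor whether libraries came from separate animals, so p-values measure only the spread between these libraries, which may be technical.

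TREM2 is a surface receptor of microglia that binds lipids, lipoproteins such as apolipoprotein E and dying cells. It has no signalling tail of its own and pairs with the adaptor TYROBP (DAP12), whose phosphorylated motif recruits the kinase SYK. AXL and MERTK are receptor tyrosine kinases that do not bind dying cells directly: GAS6 and protein S (PROS1) bridge them to phosphatidylserine on the dying cell. GAS6 binds both receptors, whereas protein S acts on MERTK and TYRO3 and hardly on AXL. MERTK is known as the receptor of uptake under resting conditions, and AXL as the one that inflammatory signals induce. CD36 binds oxidised lipids and long-chain fatty acids. Human CD33 is an inhibitory sialic acid receptor; the mouse protein differs from it in its signalling part, and its role in mouse is less certain. INPP5D (SHIP1) is a lipid phosphatase that opposes signalling through TYROBP and PI3-kinase.

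Annotated starts of the genes on which the results turn are shown with short motifs, as a view of the sequence around them. RefSeq start-site windows of GRCm38.p6, each 250 bases before to 50 after an annotated start, were available for 9 of the 10 genes, and Tyrobp had none. Capitals mark every match, on either strand, to any of 7 motifs: GAGGAA (a core bound by ETS factors, among them PU.1, the macrophage lineage factor), TGANTCA (AP-1), GGGCGG (GC box), a pair of GAAA separated by any 2 bases (IRF), TTCNNNGAA (STAT), CACGTG (E-box) and AGGTCA (the core of LXR and PPAR sites). Positions are counted from the start site as position 1. The Trem2 gene lies at chr17:48346401-48352276, Axl at chr7:25756500-25788924, Mertk at chr2:128698915-128803162 and Gas6 at chr8:13465374-13494535. The windows of Trem2, Mertk and Gas6 are set on these gene starts. The Axl window is set on an annotated start inside the gene, so its positions are not counted from 25788924. The windows follow, 5′ to 3′ on the strand of the gene, which is the plus strand for Trem2 and Mertk and the minus strand for Axl and Gas6.
Trem2, chr17:48346151-48346450: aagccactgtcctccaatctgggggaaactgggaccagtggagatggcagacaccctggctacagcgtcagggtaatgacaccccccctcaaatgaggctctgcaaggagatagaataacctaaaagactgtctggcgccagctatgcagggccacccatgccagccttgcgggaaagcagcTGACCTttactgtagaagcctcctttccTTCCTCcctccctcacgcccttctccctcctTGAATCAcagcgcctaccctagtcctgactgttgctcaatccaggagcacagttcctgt
Axl, chr7:25788684-25788983: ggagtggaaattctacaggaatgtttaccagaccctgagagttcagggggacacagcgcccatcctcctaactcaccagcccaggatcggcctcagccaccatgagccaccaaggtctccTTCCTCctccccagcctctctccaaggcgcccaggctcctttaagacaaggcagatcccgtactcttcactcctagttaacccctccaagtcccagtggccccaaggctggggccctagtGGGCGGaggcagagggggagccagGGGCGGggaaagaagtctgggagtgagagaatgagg
Mertk, chr2:128698665-128698964: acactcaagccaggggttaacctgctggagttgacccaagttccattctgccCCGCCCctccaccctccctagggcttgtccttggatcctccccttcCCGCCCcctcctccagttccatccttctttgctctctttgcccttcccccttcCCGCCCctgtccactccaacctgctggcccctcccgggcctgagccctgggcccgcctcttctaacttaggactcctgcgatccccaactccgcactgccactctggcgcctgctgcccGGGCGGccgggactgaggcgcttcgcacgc
Gas6, chr8:13494486-13494785: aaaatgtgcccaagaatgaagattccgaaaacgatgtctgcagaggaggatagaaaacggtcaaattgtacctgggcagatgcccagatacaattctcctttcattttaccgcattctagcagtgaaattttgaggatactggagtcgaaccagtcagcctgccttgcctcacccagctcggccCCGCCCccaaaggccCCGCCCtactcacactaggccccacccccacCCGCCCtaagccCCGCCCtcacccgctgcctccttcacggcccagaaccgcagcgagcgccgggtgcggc

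The Trem2 window held AGGTCA on the opposite strand from position -68, GAGGAA on the opposite strand from -40 and TGANTCA from -9. The Axl window held GAGGAA on the opposite strand from -130 and GGGCGG from -10 and from 15. Mertk and Gas6 held GGGCGG 4 times each and no other motif of the set. Of 32851 windows outside chromosome 18, GAGGAA occurred in 28.28%, GGGCGG in 35.7%, TGANTCA in 7.81% and AGGTCA in 16.3%, so each of these matches is common. A match is a description of letters, not a binding site.

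Values are TPM, the usual unit of transcript abundance, a length-corrected abundance relative to the library's own total. TPM keeps no read depth, so depth is unknown here, and no interval from counting is given. The number of genes at 1 TPM or more was between 11544 and 14093 per library. Of 8 microglia markers, all 8 reached 1 TPM in every group. Spp1, the gene behind the label, was at 534, 843 and 922 TPM in day 7 Tdt+ libraries, 17.8, 219 and 162 TPM in Tdt- libraries, and 41.5, 2.98 and 61.5 TPM in contralateral libraries. In the separate time course the day 7 Tdt+ libraries held 0 to 2.05 TPM of Spp1, although the labels give both sets the same day. The tables also differed in the genes described here: day 28 Tdt+ libraries held 286 to 348 TPM of Cd33 in the day 28 table and 1102 to 1532 TPM in the time course, and 26.3 to 35.0 against 144 to 180.4 TPM of Syk. Levels are therefore compared only within a table. The contralateral values are those of the columns named Tdt-, and contralateral columns named Tdt+ match no sample and were not used.

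Across the 52 libraries Tyrobp and Trem2 were the most abundant of the 10. Tyrobp ranged from 1794 to 4309 TPM and ranked from 24 to 48 among all genes by group mean, and Trem2 ranged from 382.82 to 2169.6 TPM and ranked from 41 to 288. Cd33, Inpp5d, Pros1, Gas6 and Mertk followed, and Syk and Axl were lower, at 15.1 TPM or more for Syk and 8.06 TPM or more for Axl. Cd36 was near the limit of the tables, listed at 0 in 11 of 52 libraries. Tyro3, the remaining TAM receptor, was at 3.09 TPM in 1 day 14 library, 1.27 TPM in 1 day 7 library of the time course, and below 1 TPM in the other libraries.

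At day 7 Axl had the largest difference of the 10 between Tdt+ and contralateral microglia, but none of the 10 passed the test. The test was limma on log2(TPM + 1) across all genes of a table, with Benjamini-Hochberg adjusted p-values over every gene tested and a threshold of 0.05. It called 9 of 12637 genes in this comparison, or 0.0712%. At an unadjusted p under 0.05 it reached 2 of the 10 and 7.18% of all genes. In bulk samples, fewer cells of a type and less RNA per cell cannot be told apart.

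Trem2 was at 1152, 1151 and 1177 TPM in Tdt+ libraries, 1415, 1299 and 1173 TPM in Tdt- libraries, and 1414, 1360.5 and 1415 TPM in contralateral libraries. Every Tdt+ library was below every contralateral library, by -0.27 ± 0.0979 on the log2 scale (SE, adjusted p = 0.568), and the Tdt- libraries spanned both. Axl was at 79.1, 64.4 and 55.7 TPM in Tdt+ libraries, 63.2, 66.3 and 37.8 TPM in Tdt- libraries, and 41.7, 26.0 and 22.1 TPM in contralateral libraries. All 3 Tdt+ libraries were above all contralateral libraries, by 1.16 ± 0.294 (95% interval 0.515 to 1.81, adjusted p = 0.293). Tdt- libraries differed from contralateral libraries by 0.88 ± 0.294 (adjusted p = 0.856), with the lowest Tdt- library below the highest contralateral one. Between Tdt+ and Tdt- libraries Axl differed by 0.28 (interval -0.37 to 0.92).

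Of the other genes at day 7, Tyrobp was lower in all Tdt+ libraries than in all contralateral libraries, although by only -0.10 (adjusted p = 0.887). Groups failed to overlap in 12.3% of all genes in this comparison, against 3 of the 10 here. Inpp5d was at 222, 204 and 213 TPM in Tdt+ libraries and 286, 243 and 269 TPM in Tdt- libraries, a difference of -0.32 ± 0.135 (adjusted p = 0.916). The Inpp5d groups did not overlap, as held for 11.2% of all genes. Mertk averaged 101.7 ± 14.18 TPM in Tdt+, 109.7 ± 3.67 TPM in Tdt- and 86.6 ± 17.2 TPM in contralateral libraries (SD, n = 3 each). Its Tdt- libraries were all above its contralateral libraries, by 0.36 (adjusted p = 0.905), where 10.3% of all genes had groups that did not overlap. No member passed between Tdt+ and Tdt- libraries, where 2 genes (0.0158%) did. There 1 of the 10, Inpp5d, and 5.24% of genes had an unadjusted p under 0.05. Nor did any pass between Tdt- and contralateral libraries, where 1 gene (0.00791%) did, and where 1 of the 10, Axl, and 5.68% of genes had such a p.

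Around these genes, 7 lists of 155 pathway genes, also chosen with earlier results of these data known, were counted. At day 7 a list gene passed in only 1 list and comparison: among 5 tested genes of the TREM2 ligand list, Apoe, which encodes the lipoprotein component apolipoprotein E, rose in Tdt+ microglia. It averaged 53724 TPM in Tdt+ libraries, against 16909 TPM in contralateral libraries, a log2 difference of 1.66 ± 0.173 (adjusted p = 0.0058). Summed markers of border-associated macrophages, a non-microglial brain macrophage that also expresses Axl, Mertk and Gas6, were 117.2 to 397.5 TPM in Tdt+, 179.3 to 211.6 TPM in Tdt- and 55.65 to 220.1 TPM in contralateral libraries. Of those 8 markers 6 reached 1 TPM in Tdt+ libraries and 8 in both others, and Lyve1 and Cd163 were listed at 0 in every Tdt+ library. The summed TPM of the 8 microglia markers was 29977 to 32398 in Tdt+, 34469 to 43060 in Tdt- and 38178 to 43919 in contralateral libraries, so the Tdt+ libraries were below all others in it. In Trem2 and Tyrobp they were below, and in Axl above, the contralateral libraries only. The Tdt- libraries overlapped the Tdt+ libraries in these genes. The summed TPM of 7 monocyte markers was 22.5 to 63.16 in Tdt+, 12.45 to 20.85 in Tdt- and 5.13 to 23.98 in contralateral libraries. In Tdt+ libraries it came from Fn1 (17.27 to 61.37 TPM) and Ccr2 (1.79 to 5.23 TPM), and the other 5 markers were listed at 0. The part of these marker sums in the day 7 values was not tested.

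At day 28 without LPS the groups were close to each other in these genes. Cd36 stayed under the minimum for testing, 1 TPM in 4 or more libraries, and 0 of the 9 tested genes passed in any of 3 comparisons. By limma no gene of the 12710 tested passed either (0%); at an unadjusted p under 0.05 were 0, 1 (Axl) and 0 of the 9 and, of all genes, 4.6% (Tdt+ minus contralateral), 3.72% (Tdt+ minus Tdt-) and 4.52% (Tdt- minus contralateral). Axl was at 10.6, 13.9, 38.8 and 27.2 TPM in Tdt+ libraries, 14.6, 8.29, 12.3 and 8.62 TPM in Tdt- libraries, and 8.06, 12.6, 16.1 and 11.7 TPM in contralateral libraries. Of the Tdt+ libraries 2 were above all others and 2 lay among them. The difference from contralateral libraries was 0.72 (95% interval of the limma fit -0.05 to 1.49, adjusted p = 0.991), and that from Tdt- libraries 0.85 (interval 0.08 to 1.62, adjusted p = 0.999).

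Trem2 averaged 1945 ± 122 TPM in Tdt+, 1849 ± 144 TPM in Tdt- and 1991 ± 152 TPM in contralateral libraries at day 28 (SD, n = 4 each), and Tyrobp 3909 ± 205, 3892 ± 300.4 and 3926 ± 229 TPM in the same order of groups. For Trem2 the 95% interval of the Tdt+ minus contralateral difference was -0.22 to 0.15 and for Tyrobp -0.17 to 0.16. Mertk averaged 200.3 ± 14.8, 198 ± 16.4 and 183 ± 24.7 TPM in Tdt+, Tdt- and contralateral libraries, with an interval of -0.12 to 0.39 for Tdt+ minus contralateral. Syk was at 26.3 to 41.1 TPM, Inpp5d at 319.6 to 415 TPM and Cd33 at 227 to 386 TPM over all 12 libraries. Gas6 was at 109 to 162 TPM and Pros1 at 277 to 463 TPM. Cd36 was listed at 0, 0.160, 0 and 0 TPM in Tdt+ libraries, 0.180, 0, 1.43 and 0 TPM in Tdt- libraries, and 0, 2.54, 0.400 and 0 TPM in contralateral libraries. No tested member had groups without overlap, against 2.68% (Tdt+ minus contralateral), 2.52% (Tdt+ minus Tdt-) and 2.58% (Tdt- minus contralateral) of all genes. No gene of the 7 lists passed.

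After LPS these genes spread apart between the groups. Axl was higher in Tdt+ than in contralateral microglia, and Trem2, Mertk, Gas6, Pros1, Cd33 and Inpp5d were lower, with Tdt- microglia in between by mean for each of these 7 genes. With libraries taken as independent, 0 of the 10 passed between Tdt+ and contralateral microglia, while 181 of 13397 genes (1.35%) did, and 6 of the 10 and 11.5% of all genes had an unadjusted p under 0.05. Libraries of the same number deviated together after LPS (median r of 0.233, beside -0.0732 for other pairs). With the number as a block these 7 of 10 passed, against 6.94% of all genes. Of the 7, 1 was higher and 6 were lower, against 2.41% of genes higher and 4.53% lower. The median difference of the 10 was -0.53, beside -0.122 for all genes tested. Relative to the shift of all genes the 7 stood at 1.42 (Axl), -0.70 (Trem2), -0.46 (Mertk), -1.14 (Gas6), -0.46 (Pros1), -0.82 (Cd33) and -0.36 (Inpp5d). The labels do not say what a number stands for, so calls between Tdt+ and contralateral microglia after LPS are given with both fits.

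Libraries numbered 4 stood apart in all 3 LPS groups. They held the most Spp1, at 665 TPM in Tdt+, 373 TPM in Tdt- and 157 TPM in contralateral libraries, the most Cd33 and the least Gas6. Leaving them out left 3 libraries per group: 3 members then passed without the block, which were Mertk (-0.61, adjusted p = 0.0163), Gas6 (-1.30, adjusted p = 0.0147) and Pros1 (-0.57, adjusted p = 0.0453), against 2.47% of 13504 genes. Trem2 was then at -0.78 (adjusted p = 0.0508). With the block 7 passed, against 4.75% of genes.

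The receptor Trem2 was at 474, 768, 522 and 383 TPM in Tdt+ libraries, 775, 974, 807 and 523 TPM in Tdt- libraries, and 841, 1056, 1088 and 741 TPM in contralateral libraries. Only the Tdt+ library numbered 2 reached the contralateral range, and within each of the 4 numbers Tdt+ was lowest and contralateral highest. Tdt+ libraries held 0.566-fold of the contralateral level, a log2 difference of -0.82 ± 0.228 (adjusted p = 0.13), and with the block ± 0.0981 (adjusted p = 0.00045). Without the Tdt+ library numbered 2 the unblocked difference was -1.01 (adjusted p = 0.0456). Against Tdt- libraries the Tdt+ level differed by -0.53 ± 0.228 (adjusted p = 1, and 0.0492 with the block).

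Tyrobp, the adaptor of Trem2, was at 2036, 3127, 2767 and 2676 TPM in Tdt+ libraries, 3342, 3124, 2892 and 3028 TPM in Tdt- libraries, and 2901, 3416, 3628 and 2997 TPM in contralateral libraries. The groups overlapped, and the Tdt+ minus contralateral difference of -0.30 ± 0.136 did not pass without the block (adjusted p = 0.429) or with it (adjusted p = 0.141). Syk, the kinase downstream, averaged 60.1 ± 6.23 TPM in Tdt+, 52.3 ± 15.8 TPM in Tdt- and 54.7 ± 13.2 TPM in contralateral libraries (SD, n = 4 each), with a Tdt+ minus contralateral interval of -0.31 to 0.63. In Trem2 per Tyrobp the Tdt+ libraries were between 0.143 and 0.2455 (median 0.2109), Tdt- libraries between 0.1728 and 0.3118 (median 0.2555) and contralateral libraries between 0.2471 and 0.3091 (median 0.2948). Every Tdt+ ratio was thus below every contralateral ratio.

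**Figure D1:**
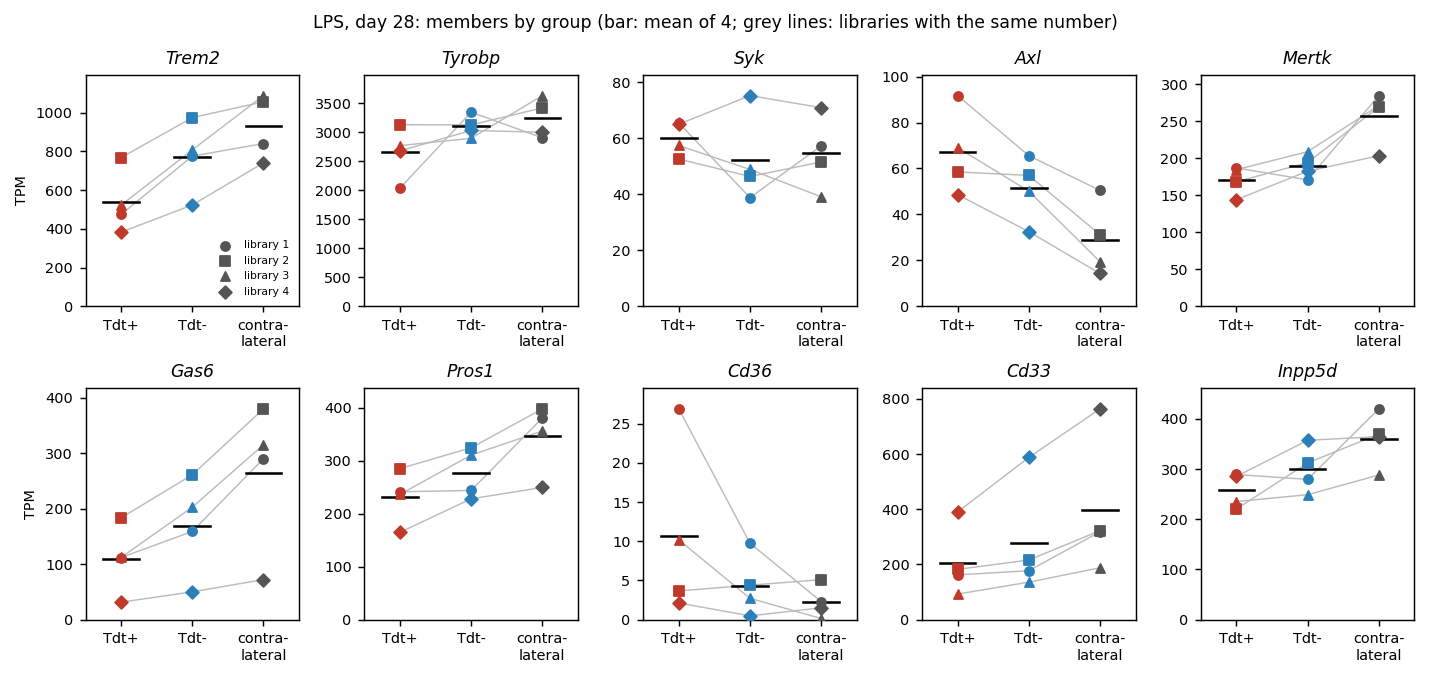
TPM of the 10 genes after LPS at day 28 (vertical axes, one scale per gene) in Tdt+, Tdt- and contralateral libraries; symbols are libraries, grey lines join libraries of the same number and bars are means of 4. For Trem2, Axl, Gas6, Pros1 and Cd33 every line runs one way from Tdt+ to contralateral, and the libraries numbered 4 hold the most Cd33 and the least Gas6.

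The TAM receptors lay in opposite directions. Axl was at 91.7, 58.5, 69.1 and 48.6 TPM in Tdt+ libraries, 65.6, 57.0, 50.1 and 32.5 TPM in Tdt- libraries, and 50.5, 31.2, 19.4 and 14.31 TPM in contralateral libraries. Only the Tdt+ library numbered 4 lay below the highest contralateral library, and every number had Tdt+ highest. The Tdt+ level was 2.47-fold the contralateral level, a log2 difference of 1.302 ± 0.346 (adjusted p = 0.111), and with the block ± 0.176 (adjusted p = 0.00115). Without the contralateral library numbered 1 it was 1.61 (adjusted p = 0.0295, unblocked). After quantile normalization it was 1.39 (adjusted p = 0.0418).

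Mertk was at 187, 168, 185 and 144 TPM in Tdt+ libraries, 171, 194, 209 and 182 TPM in Tdt- libraries, and 284, 269, 271 and 203 TPM in contralateral libraries. All 4 Tdt+ libraries were below all 4 contralateral libraries, as held in this direction for 4.75% of all genes, and Mertk was the only one of the 10 with such a separation. The difference was -0.58 ± 0.137 (0.668-fold, adjusted p = 0.0638), and with the block ± 0.0962 (adjusted p = 0.00392). It passed unblocked without the contralateral library numbered 4 (-0.69, adjusted p = 0.0187) and with genes under 10 TPM removed (adjusted p = 0.0483). Between Tdt+ and Tdt- libraries Mertk differed by -0.15 (interval -0.44 to 0.15).

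Both bridging ligands were lower in Tdt+ microglia. Gas6 was at 112, 184, 112 and 31.6 TPM in Tdt+ libraries, 159, 261, 203 and 50.1 TPM in Tdt- libraries, and 290.3, 380.1, 315 and 72.3 TPM in contralateral libraries. The groups overlapped through the libraries numbered 4, and within each number the order was the same. The difference was -1.27 ± 0.639 (0.416-fold, adjusted p = 0.499), and with the block ± 0.0962 (adjusted p = 2.46e-05). Against Tdt- libraries it was -0.63 (adjusted p = 0.0225 with the block, 1 without). Pros1 was at 241, 285, 236 and 165 TPM in Tdt+ libraries, 244, 324, 311 and 228 TPM in Tdt- libraries, and 381, 398, 356 and 249 TPM in contralateral libraries. Its difference from contralateral was -0.58 ± 0.196 (0.669-fold, adjusted p = 0.241), and with the block ± 0.0931 (adjusted p = 0.00325). Only the contralateral library numbered 4 lay within the Tdt+ range of Pros1.

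Of the inhibitory genes, Cd33 was at 162, 182, 92.8 and 390.3 TPM in Tdt+ libraries, 177, 216, 136 and 588 TPM in Tdt- libraries, and 318, 322, 188 and 764 TPM in contralateral libraries. The spread between numbers was wider than that between groups, while Tdt+ was lowest within every number. The difference was -0.94 ± 0.522 (0.521-fold, adjusted p = 0.541), and with the block ± 0.0939 (adjusted p = 0.000146). Inpp5d was at 289, 220.5, 235 and 285 TPM in Tdt+ libraries, 279, 312, 249 and 357 TPM in Tdt- libraries, and 419.8, 369.6, 288 and 365 TPM in contralateral libraries. The Tdt+ and contralateral libraries overlapped by a single pair, and their difference was -0.48 ± 0.154 (adjusted p = 0.207, and 0.0199 with the block). Cd36 was at 26.9, 3.67, 10.2 and 2.13 TPM in Tdt+ libraries, 9.76, 4.40, 2.73 and 0.490 TPM in Tdt- libraries, and 2.31, 5.10, 0.150 and 1.51 TPM in contralateral libraries. It was higher in Tdt+ than in contralateral microglia in 3 of 4 numbers and did not pass with the block (adjusted p = 0.131) or without it (adjusted p = 0.451).

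**Figure D2:**
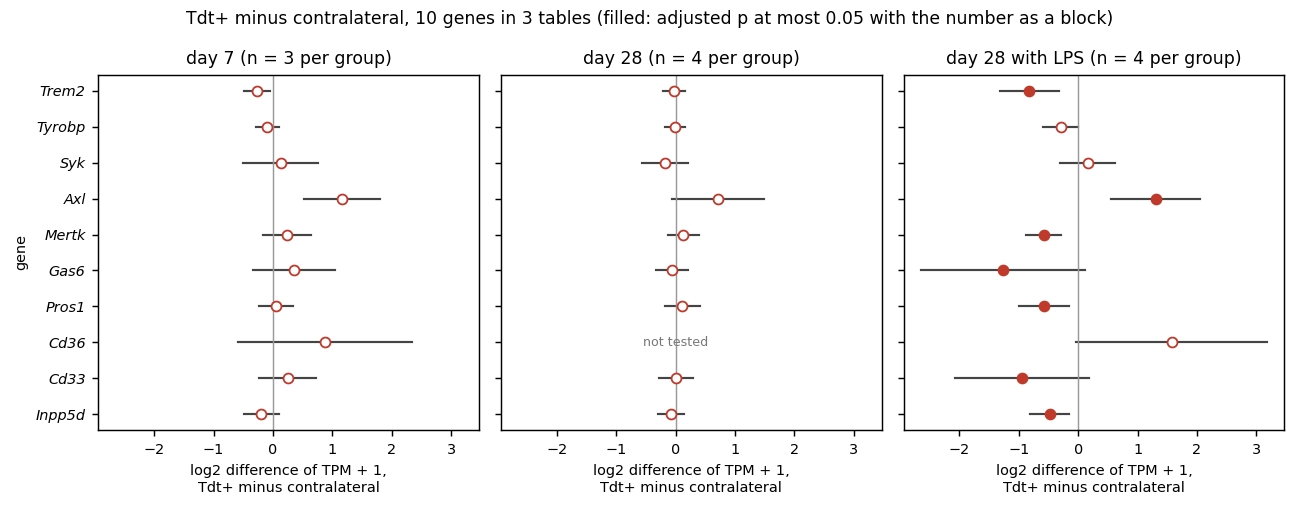
Log2 difference of TPM + 1 between Tdt+ and contralateral libraries (horizontal axis) for the 10 genes at day 7, day 28 and day 28 with LPS; points are estimates, lines are 95% intervals of the fit without the block, and filled points passed after LPS with the number as a block. Axl lies above 0 in all 3 panels, and Trem2, Mertk, Gas6, Pros1, Cd33 and Inpp5d lie below 0 after LPS.

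Between Tdt+ and Tdt- libraries after LPS no gene of the 13397 passed by limma without the block (0%), where 1 of the 10 and 4.61% of all genes had an unadjusted p under 0.05. With the block Trem2 and Gas6 passed, against 0.463% of all genes, and neither did once the libraries numbered 4 were left out (Trem2 adjusted p = 0.146, Gas6 adjusted p = 0.111). Between Tdt- and contralateral libraries 0 of 10 passed without the block and 0.0149% of all genes did, with 2 of the 10 and 5.75% of all genes at an unadjusted p under 0.05. In that fit Axl had the largest difference, 0.92 ± 0.346 (adjusted p = 0.832), followed by Gas6 (-0.64), Cd36 (0.62), Cd33 (-0.56) and Mertk (-0.43 ± 0.137, adjusted p = 0.684). The numbers were not taken as pairs in this comparison, where 1 same-numbered pair had r of 0.0741. With the block Axl (adjusted p = 0.0407), Gas6 (adjusted p = 0.0123) and Cd33 (adjusted p = 0.0185) passed, as did 119 of 13397 genes. With the libraries numbered 4 also left out, Gas6 (adjusted p = 0.04) and Cd33 (adjusted p = 0.0469) passed and Axl did not (adjusted p = 0.126).

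Marker sums also differed between these groups. The summed TPM of 8 microglia markers was 16923 to 24929 in Tdt+, 21464 to 26606 in Tdt- and 25313 to 33166 in contralateral libraries after LPS, so Tdt+ and contralateral libraries did not overlap in it. The summed TPM of 7 monocyte markers was 77.6 to 210.5 in Tdt+, 77.92 to 151.8 in Tdt- and 42.73 to 101 in contralateral libraries. Most of that sum in Tdt+ libraries was Fn1, at 67.11 to 203.4 TPM, while Ly6c2 and Chil3 were listed at 0 in every Tdt+ library, and Ccr2 was at 0.53 to 1.32 TPM. Border-associated macrophage markers summed to 17.15 to 30.87 TPM in Tdt+, 15.85 to 36.46 TPM in Tdt- and 22.91 to 35.45 TPM in contralateral libraries. The part of the lower microglia marker sum in the lower Trem2, Mertk, Gas6 and Pros1, and in the higher Axl, was not tested.

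In 5 of the 7 pathway lists around the 10 genes, some genes passed between Tdt+ and contralateral microglia after LPS without the block, beside 0.896% of all genes higher and 0.455% lower. The list counts with the block, for all 7 lists, are read beside 2.41% of all genes higher and 4.53% lower with the block. Among 36 signalling genes of the ITAM pathway 1 rose, Pik3ap1, an adaptor of PI3-kinase (0.58, adjusted p = 0.013), and with the block 6 were higher and 5 lower. Among 28 genes that recognise phosphatidylserine and dying cells 1 fell, Itgb5, an integrin chain (-0.68, adjusted p = 0.00851), and with the block 1 was higher and 5 were lower. Of 19 CD36 partners and scavenger receptors 4 rose, led by the scavenger receptors Marco, which averaged 1185.7 TPM in Tdt+ and 44.9 TPM in contralateral libraries (6.03, adjusted p = 0.00642), and Msr1 (1.44, adjusted p = 0.0214), and with the block 5 were higher and 2 lower.

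The inhibitory list went both ways among 25 tested genes. Pilra (1.55, adjusted p = 0.00634) and Cd22 (1.55, adjusted p = 0.0207) led 4 that rose, and Siglecf (-1.38, adjusted p = 0.00472) and Fcgr2b (-0.48, adjusted p = 0.0493) fell; with the block 6 were higher and 3 lower. Of 11 activating Fc and lectin receptors 3 rose, among them Clec4e (adjusted p = 0.00262), at 9.61 TPM in Tdt+ and 0.0725 TPM in contralateral libraries on average, and Clec4d (adjusted p = 0.0179), at 6.54 and 0.135 TPM, and with the block 6 were higher and 2 lower. No contralateral library reached 1 TPM of Clec4e or Clec4d, so both met the minimum for testing only through libraries of the stroke cortex. None of 6 TREM2 ligands and none of 8 TAM feedback targets passed without the block, and with it 1 of each was higher. The list medians were -0.133 for ITAM signalling, -0.183 for phosphatidylserine recognition, -0.0928 for CD36 partners, 0.0667 for the inhibitory list and 0.735 for the Fc and lectin receptors, beside -0.122 for all genes.

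Whether LPS itself changed a difference between groups was asked by setting the LPS differences against those at day 28 without LPS, in a fit of both tables. The tables were normalized separately, and an offset shared by the groups of a table drops out. A difference between the tables that its groups do not share does not drop out. It cannot be told apart from LPS, since each table held only 1 of the 2 conditions. For Tdt+ against contralateral microglia 0 of the 10 passed, beside 0.555% of 14602 genes, with 5 of the 10 and 7.88% of genes at an unadjusted p under 0.05. Mertk came nearest, with a difference of differences of -0.71 ± 0.179 (adjusted p = 0.0795), followed by Trem2 at -0.79 (adjusted p = 0.257). With the number as a block, 5 of the 10 passed, against 2.47% of all genes: Trem2 (adjusted p = 0.000772), Mertk (adjusted p = 0.0148), Gas6 (-1.21, adjusted p = 8.03e-05), Pros1 (-0.69, adjusted p = 0.00949) and Cd33 (-0.95, adjusted p = 0.000394), all 5 lower. At day 28 without LPS the numbers did not meet the rule for pairing, every same-numbered r over 0.1. Their r was -0.00835 to 0.187 there, with a median of 0.0579 beside -0.0271 for other pairs. Unblocked, Mertk passed without the LPS contralateral library numbered 4 (-0.82, adjusted p = 0.0203), and Trem2 without the LPS Tdt+ library numbered 2 (-0.98, adjusted p = 0.0422). Without all LPS libraries numbered 4, Mertk (-0.74, adjusted p = 0.0232) and Gas6 (-1.24, adjusted p = 0.0129) passed. For Axl the difference of differences was 0.59 ± 0.517 (interval -0.48 to 1.65, adjusted p = 0.569 with the block), so the Axl difference after LPS was not shown to exceed that without LPS. Among the pathway lists the unblocked differences of differences passed for Marco (6.03, adjusted p = 0.00361), Cxcl16 (1.57), Clec4e (3.34), Clec4d (2.69), Pilra (1.73), Pik3ap1 (0.69) and Siglecf (-1.41), with 1 further gene in the Fc and lectin list. For Tdt+ against Tdt- microglia no gene passed by limma without the block (0%), with 1 of the 10 and 3.97% of genes at an unadjusted p under 0.05. For Tdt- against contralateral microglia 0.0205% of genes and 0 of the 10 did, with 1 of the 10 and 5.44% of genes at such a p.

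Over the Tdt+ time course the 10 genes took different paths. Later days were also greater ages (postnatal day 9 at day 3, 34 at day 28), and no other group was sampled. Time since stroke and age therefore cannot be told apart here. From day 3 to day 28 Mertk, Syk, Inpp5d, Cd33 and Pros1 rose, and Gas6, Tyrobp, Axl and Cd36 fell (Tyrobp not after quantile normalization, and Pros1 was no higher than the shift of all genes), so 9 of the 10 passed between these days, with 5 higher and 4 lower. Cd36 is counted among the 4, although it met the minimum for testing only through libraries of earlier days, where it was higher. In the same comparison 43.6% of 15316 genes passed, 35.6% higher and 7.97% lower. Where libraries of different days do not overlap in the values below, this is a description. The share of all genes that separated in this way is not given for the time course, so separation is not read as particular to these genes. The median of all genes was 0.555 higher at day 28, so a value is also given relative to that shift. Relative to it Mertk stood at 1.04, Syk at 0.74, Inpp5d at 0.72, Cd33 at 0.26 and Pros1 at -0.11, and Gas6 at -1.85, Cd36 at -1.81, Axl at -1.37 and Tyrobp at -0.94.

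Mertk, the TAM receptor of resting uptake, was at 136, 145, 158, 119.5 and 139.7 TPM at day 3, 229.9, 234, 168, 227 and 193 TPM at day 7, 428, 394, 267, 173 and 358 TPM at day 14, and 392, 416, 489.9 and 397 TPM at day 28. Each day 28 library was above each day 3 and day 7 library, and day 14 was spread across both. Mertk was 3.02-fold higher at day 28 than at day 3, a log2 difference of 1.59 ± 0.19 (adjusted p = 1.23e-06). It rose from day 3 to day 7 by 0.58 ± 0.179 (adjusted p = 0.0332), a call that was lost without any of 7 libraries in turn (numbers 1, 2, 4 and 5 of day 3 and 1, 2 and 4 of day 7, adjusted p = 0.0502 to 0.0856), after quantile normalization (adjusted p = 0.0712) and with no filter (adjusted p = 0.0777). Between days 7 and 14 the difference of 0.56 missed the threshold (adjusted p = 0.0684). Without the day 14 library numbered 4 it was 0.77 (adjusted p = 0.0014), and with genes under 10 TPM removed it passed (adjusted p = 0.0481).

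Axl was at 134, 179, 159, 110.4 and 75.3 TPM at day 3, 142, 93.8, 221, 118 and 191 TPM at day 7, 105, 111, 92.4, 59.2 and 86.3 TPM at day 14, and 54.1, 57.4, 90.3 and 90.5 TPM at day 28. Neighbouring days overlapped, and the lowest day 3 library lay among those of day 28. Axl fell at day 28 relative to day 3 by -0.82 ± 0.265 (0.567-fold, adjusted p = 0.0167), a call lost without the day 28 library numbered 1 (-0.69, adjusted p = 0.0635) or 2 (-0.72, adjusted p = 0.0578). Between days 7 and 14 it differed by -0.71 ± 0.25 (adjusted p = 0.102), and passed after quantile normalization (-0.88, adjusted p = 0.0396) or without the day 7 library numbered 2 (-0.87, adjusted p = 0.0485).

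The ligands parted early. Gas6 was at 422, 386, 273, 447 and 356 TPM at day 3, 218, 67.9, 180.5, 171 and 189.8 TPM at day 7, 163, 205, 144, 127 and 206 TPM at day 14, and 142, 125, 190.1 and 153 TPM at day 28. Every day 3 library was above every later library. Gas6 was lower at day 7 than at day 3 by -1.26 ± 0.236 (0.416-fold, adjusted p = 0.000858), and differed little from day 7 on (0.11 for day 14 minus day 7, -0.14 for day 28 minus day 14, neither passed). Pros1 averaged 141 ± 14.54 TPM at day 3, 125 ± 13.3 TPM at day 7, 185 ± 58.3 TPM at day 14 (SD, n = 5 each) and 192 ± 11.4 TPM at day 28 (SD, n = 4). Its day 28 libraries were above all day 3 libraries, by 0.44 ± 0.177 (adjusted p = 0.048), a call that was lost without any of 8 libraries in turn (numbers 2 to 5 of day 3 and all 4 of day 28, adjusted p = 0.0509 to 0.0995), after quantile normalization (0.22, adjusted p = 0.372) and with no filter (adjusted p = 0.0945). The day 14 library numbered 4 was lowest of its day, and without it Pros1 passed between days 7 and 14 (0.68, adjusted p = 0.00338, against 0.50 and adjusted p = 0.0827 with it).

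**Figure D3:**
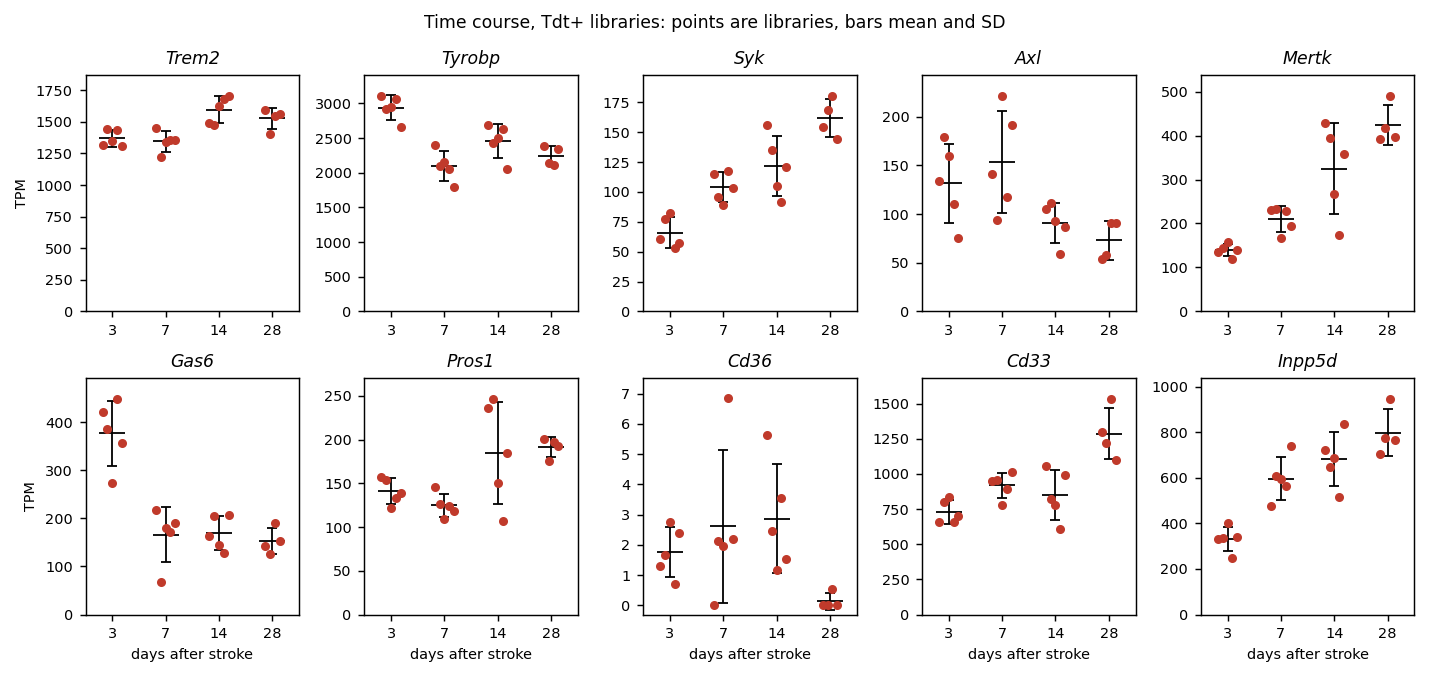
TPM of the 10 genes in Tdt+ libraries of the time course (vertical axes, one scale per gene) against days after stroke; points are libraries and bars are the mean and SD of 5 libraries (4 at day 28). Mertk, Syk and Inpp5d are higher on each later day by mean, and Gas6 is high at day 3 only.

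In the TREM2 arm the receptor, the adaptor and the kinase differed. Trem2 was at 1313, 1446, 1349, 1438 and 1306 TPM at day 3, 1449, 1222, 1341, 1359 and 1357 TPM at day 7, 1489, 1477, 1625, 1679 and 1704 TPM at day 14, and 1595, 1404, 1549.5 and 1562 TPM at day 28. All day 14 libraries were above all day 7 libraries, by 0.24 ± 0.0716 (adjusted p = 0.0457), the only one of the 10 to pass in that step, where 6% of genes did. That step was 0.11 relative to the median of all genes, and 0.47 after quantile normalization (adjusted p = 0.000248). The call was lost without any of 7 libraries in turn (numbers 2 to 5 of day 7 and 3 to 5 of day 14, adjusted p = 0.0698 to 0.119) and with no filter (adjusted p = 0.0829). At day 28 Trem2 differed from day 3 by 0.16 ± 0.076 (adjusted p = 0.101), which is -0.40 relative to the median of all genes, and by 0.76 after quantile normalization (adjusted p = 5.16e-08).

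Tyrobp was at 3107, 2919.8, 2942, 3069 and 2661 TPM at day 3, 2403, 2097, 2154, 2054 and 1794 TPM at day 7, 2686, 2424, 2502, 2629 and 2050.2 TPM at day 14, and 2386, 2146, 2109 and 2339 TPM at day 28. Every day 7 and every day 28 library was below every day 3 library. Tyrobp fell at day 7 by -0.49 ± 0.0867 (0.713-fold, adjusted p = 0.000521). At day 28 it was lower than at day 3 by -0.39 ± 0.092 (adjusted p = 0.00198), but after quantile normalization the difference was 0.12 (adjusted p = 0.381). Syk was at 60.7, 77.0, 82.2, 52.9 and 57.0 TPM at day 3, 115, 95.6, 89.2, 117 and 104 TPM at day 7, 156, 135, 105, 91.8 and 121 TPM at day 14, and 154, 169, 180.4 and 144 TPM at day 28. Day 3 libraries were below all libraries of the later days. Syk rose at day 7 by 0.66 ± 0.149 (adjusted p = 0.00414) and was 2.46-fold higher at day 28 than at day 3 (1.298 ± 0.158, adjusted p = 1.64e-06). Without the day 14 library numbered 1, the day 28 minus day 14 difference of Syk passed as well (0.52, adjusted p = 0.0485, against 0.43 and adjusted p = 0.114 with it).

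Inpp5d, the phosphatase that opposes this arm, was at 331, 338, 399.9, 248 and 341 TPM at day 3, 475, 609.7, 596, 565 and 739 TPM at day 7, 723, 649, 687, 516 and 838 TPM at day 14, and 704, 776, 945 and 767 TPM at day 28. All libraries of later days were above all of day 3. The rise at day 7 was 0.85 ± 0.138 (1.80-fold, adjusted p = 0.00023), and at day 28 it was 2.42-fold the day 3 level (1.27 ± 0.147, adjusted p = 7.85e-07). After quantile normalization the last step passed as well (0.56, adjusted p = 0.0432, against 0.23 and adjusted p = 0.369). Cd33 averaged 730.1 ± 83.0 TPM at day 3, 918 ± 89.9 TPM at day 7, 851 ± 177 TPM at day 14 (SD, n = 5 each) and 1288 ± 181 TPM at day 28 (SD, n = 4). Its rise lay in the last step, where all 4 day 28 libraries, at 1297, 1221, 1532 and 1102 TPM, exceeded all day 14 libraries, at 1055, 821, 779, 610.1 and 989.5 TPM. That step was 0.61 ± 0.137 (adjusted p = 0.0113) and missed the threshold without the day 28 library numbered 3 (0.53, adjusted p = 0.0516). Between days 3 and 28 Cd33 rose by 0.81 ± 0.137 (1.76-fold, adjusted p = 7.93e-05), and by 1.28 after quantile normalization (adjusted p = 1.36e-06).

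Cd36 was at 1.31, 1.68, 2.75, 0.700 and 2.41 TPM at day 3, 0, 2.13, 1.95, 6.84 and 2.18 TPM at day 7, 5.62, 2.46, 1.16, 3.55 and 1.52 TPM at day 14, and 0, 0, 0.550 and 0 TPM at day 28. All 4 day 28 libraries were below all day 3 and day 14 libraries. None of them reached 1 TPM, so Cd36 met the minimum for testing only through libraries of earlier days. The difference of TPM + 1 was -1.67 ± 0.466 for day 28 minus day 14 (adjusted p = 0.0361) and -1.26 ± 0.466 for day 28 minus day 3 (adjusted p = 0.0344). Both were lost with no filter (adjusted p = 0.0857 and 0.0795) and with the number as a block (adjusted p = 0.0635 and 0.0576). The step from day 14 was also lost without any of 7 libraries in turn (numbers 1, 2 and 4 of day 14 and all of day 28, adjusted p = 0.0513 to 0.0921), and the comparison with day 3 without any of 6 (numbers 2, 3 and 5 of day 3 and 1, 2 and 4 of day 28, adjusted p = 0.053 to 0.0742).

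By step, 5 of the 10 passed between days 3 and 7 (Syk, Mertk and Inpp5d higher, Tyrobp and Gas6 lower), against 9.93% of all genes higher and 4.42% lower. Between days 14 and 28 it was 2 (Cd33 higher, Cd36 lower), against 6.27%. Of these, Cd36 met the minimum for testing only through libraries of earlier days. The median of all genes moved by 0.182, 0.137 and 0.18 in the 3 steps. Relative to these shifts the called differences kept their signs. Marker sums also moved at the first step. Border-associated macrophage markers summed to 284.6 to 377.4 TPM at day 3, 29.85 to 47.74 TPM at day 7, 16.56 to 32.8 TPM at day 14 and 9.93 to 45.46 TPM at day 28. All 8 markers reached 1 TPM at day 3 and 5 did at day 7, Mrc1 was at 72.07 to 122.2 TPM at day 3, and Lyve1 and Cd163 were listed at 0 in every library from day 7 on. Microglia markers summed to 16598 to 20119 TPM at day 3, 29269 to 34109 TPM at day 7, 37670 to 39854 TPM at day 14 and 31338 to 36101 TPM at day 28. The 7 monocyte markers summed to 14.66 to 410 TPM at day 3 (median 32.88) and 10.65 to 70.14 TPM at day 7. They summed to 5.39 to 25.45 TPM at day 14 and 3.29 to 14.22 TPM at day 28. Red blood cell markers summed to up to 447.6 TPM at day 14, with a median of 4.69 TPM. The part of all these marker sums in the levels of Gas6 at day 3 and of the other genes was not tested.

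The counts of called genes differed between the pathway lists, and each is read beside the 35.6% of all genes that were higher and the 7.97% that were lower at day 28 than at day 3. Of 35 ITAM signalling genes 27 were higher (77.1%) and 2 lower, with a list median of 0.795 beside 0.555 for all genes. Plcg1, a phospholipase C of receptor signalling (1.85, adjusted p = 0.000398), and Malt1, a scaffold of NF-kB signalling (1.76, adjusted p = 1.74e-05), had the largest rises, and Treml2 (-0.85) and Fcer1g, an ITAM adaptor like Tyrobp (-0.58), fell. Of 6 tested genes of the TREM2 ligand list 4 fell (66.7%) and none rose, with a list median of -1.60. Being on this list does not show that a gene product binds TREM2. Apoe averaged 1899.7 TPM at day 28 and 41561 TPM at day 3 (-4.45 ± 0.181, adjusted p = 3.51e-13), and Lpl, lipoprotein lipase, 31.9 and 290.0 TPM (-3.16, adjusted p = 3.83e-10).

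Among 29 genes of phosphatidylserine recognition 14 were higher (48.3%) and 5 lower (17.2%) at day 28 than at day 3, with a list median of 0.391, below that of all genes. Elmo1, an engulfment adaptor (2.14), and Itgb3, an integrin chain (2.08), led the rises, and Anxa5, which itself binds phosphatidylserine (-2.55), and Rac2, a small GTPase (-1.15), led the falls. Of 8 TAM feedback targets 2 rose (25%), Socs1 (1.39) and Ifnar2 (0.58), a lower share than of all genes, and none fell. Of 20 CD36 partners 6 rose (30%), also a lower share than of all genes, and 5 fell (25%), with Acsl1 (1.49) and Ppard (1.35) against the fatty acid carriers Fabp5 (-5.50) and Fabp3 (-4.39). Of 25 inhibitory genes 11 rose (44%), a share near that of all genes, and 5 fell (20%), with Siglecg (1.88) among the rises, against Siglec1 (-3.88) and Cd22 (-1.62). Of 8 activating Fc and lectin receptors 1 rose, Siglech (1.73), and 5 fell, among them Clec7a (-1.66) and Clec4n, which was listed at 0 in all day 28 libraries and averaged 5.82 TPM at day 3. Clec4n thus met the minimum for testing only through libraries of earlier days.

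Step by step the lists are read beside 9.93% of all genes higher and 4.42% lower from day 3 to day 7, 4.46% and 1.54% from day 7 to day 14, and 4.06% and 2.21% from day 14 to day 28. From day 3 to day 7 the counts higher and lower were 12 and 1 of 35 for ITAM signalling. Plcg1 (1.34) and Akt1 (0.91) led the rises there, and Fcer1g (-0.33) fell. For the TREM2 ligand list the counts were 0 and 3 of 6, led by Lgals3 (-3.39) and Lpl (-2.03). For phosphatidylserine recognition they were 11 and 4 of 29, with Itgb5 (1.34) and Elmo1 (1.08) against Anxa5 (-2.87) and Stab1 (-1.14). From day 7 to day 14 the counts were 5 and 0 for ITAM signalling, with Tspan14 (0.51) among the rises. For the TREM2 ligand list they were 0 and 2, with Apoe (-1.92) and Lpl (-0.98) lower. For phosphatidylserine recognition they were 7 and 3, led by Havcr2 (1.00) and Anxa5 (0.93) against Rac2 (-0.71) and Abca1 (-0.53). From day 14 to day 28 they were 0 and 2 for ITAM signalling (among them Treml2 at -0.86), 0 and 1 for TREM2 ligands (Apoe, -1.53), and 3 and 3 for phosphatidylserine recognition, with Dock1 (1.00) and Elmo1 (0.76) against Cd300lf (-1.80) and C1qa (-0.44). Of 8 TAM feedback targets 1 rose at the first step, Ifnar2 (0.27), 2 rose at the next, among them Socs1 (1.32), and 1 fell at the last. Of 20 CD36 partners 3 rose and 6 fell from day 3 to day 7, with Dgat1 (0.68) and Cd81 (0.67) against Fabp5 (-4.48) and Colec12 (-4.15), 2 rose at the next step (Acsl1, 0.77, and Cd81, 0.69), and none passed at the last. Of 25 inhibitory genes 6 rose and 5 fell at the first step, with Siglecg (1.63) and Siglecf (1.41) against Cd22 (-2.35) and Lilrb4a (-2.05). At the next step 1 rose, Lair1 (0.50), and at the last 1 rose, Ptprc (0.66), and 2 fell, Siglec1 (-2.18) and Siglecf (-1.01). Of 8 activating Fc and lectin receptors 1 rose, Siglech (1.25), and 4 fell at the first step, led by Clec7a (-2.72) and Clec4n (-1.68). Fcgr3 rose by 0.30 at the next step, and at the last Fcgr1 (-0.59) and Fcgr3 (-0.37) fell.

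The ratio of Axl to Mertk, both in TPM of the same library, gives the balance of the TAM receptors without the scale of a library. Its medians in the time course were 0.9853 (day 3), 0.6155 (day 7), 0.2828 (day 14) and 0.1612 (day 28). Every day 28 ratio (0.138 to 0.2276) was below every day 14 ratio (0.2412 to 0.3458), and those were below every day 7 ratio (0.4018 to 1.318). After LPS the ratio was 0.3375 to 0.4909 in Tdt+, 0.1783 to 0.384 in Tdt- and 0.07039 to 0.1774 in contralateral libraries, so both groups of the stroke cortex were above the contralateral libraries. At day 28 without LPS it was 0.05579 to 0.1811 in Tdt+, 0.04392 to 0.06545 in Tdt- and 0.0518 to 0.09369 in contralateral libraries, and the groups overlapped. At day 7 the medians were 0.6786, 0.5695 and 0.3111 in Tdt+, Tdt- and contralateral libraries, with overlap.

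**Figure D4:**
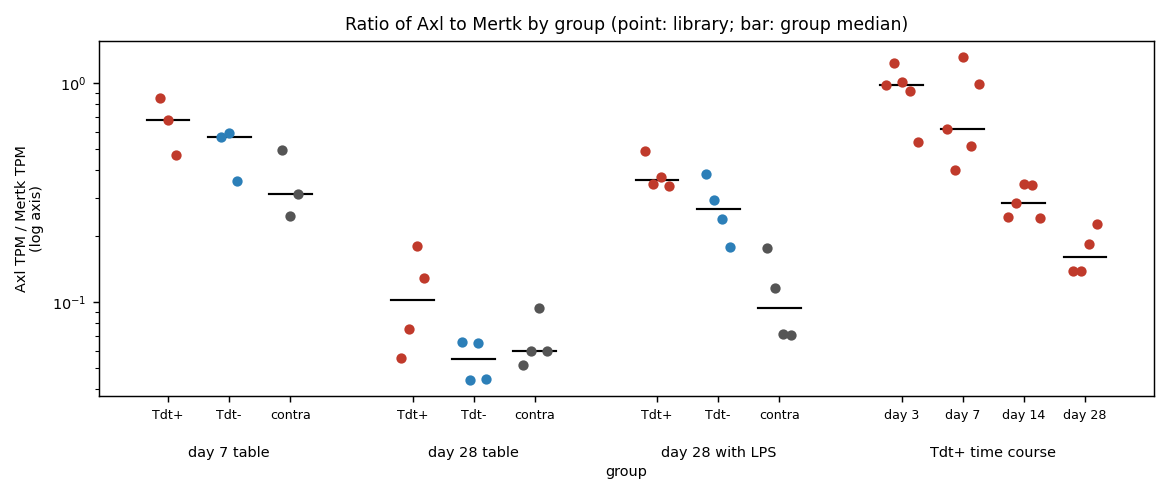
Axl TPM over Mertk TPM (vertical log axis) in each library of the 4 tables, by group; points are libraries and bars are group medians. After LPS all Tdt+ and Tdt- libraries lie above the contralateral libraries, and in the Tdt+ time course the median goes down on each later day.

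The ratio of Gas6 to Pros1 in the time course had medians of 2.57 (day 3), 1.494 (day 7), 0.9605 (day 14) and 0.7537 (day 28), so the more abundant ligand transcript was Gas6 at day 3 and Pros1 at day 28. Trem2 per Tyrobp had medians of 0.4685, 0.6224, 0.6388 and 0.6682 on the same days, and every day 3 ratio (0.4227 to 0.4952) was below every later one (0.5544 to 0.8312).

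As a description over the 52 libraries, with each gene centred on its mean in each table, the genes whose log2(TPM + 1) tracked Mertk most closely among 7956 genes were Lrrc3 (r = 0.911), Git2 (r = 0.899) and Ssh2 (r = 0.892). For Trem2 they were Gmpr (r = 0.762), Hpgd (r = 0.76) and Rab3il1 (r = 0.752), and for Axl Adgre1 (r = 0.649), Csf2ra (r = 0.629) and Cd52 (r = 0.624). For Cd36 the closest was Fam214b (r = 0.518), a weak likeness in a gene near 0, followed by Eif3a (r = 0.498) and Gm10337 (r = 0.483). Among the 10, Inpp5d went most closely with Mertk (r = 0.792), Inpp5d with Syk (r = 0.741) and Mertk with Syk (r = 0.696), whereas Trem2 with Tyrobp reached r = 0.43. These values mix differences between groups with those between libraries, and genes of a library share its preparation.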

How the data were processed

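RNA of 2000 sorted microglia per library was measured by bulk sequencing, per the labels' protocols. The authors deposited the values as TPM in 4 tables. The submitters' processing notes name cutadapt 2.10, STAR 2.7.5c, RSEM 1.3.3 and GRCm38 without saying in which role. TPM are relative to each library's total and keep no depth, so a few abundant genes that change shift all others. Of 60 samples, the 52 bulk libraries were used, and the others were not analysed here. A further 7 columns matched no sample and were not used.

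From the TPM, log2(TPM + 1) was fitted with limma 3.58.1 in R 4.3.3 (two-sided, variance trend, all groups of a table in one fit), for genes at 1 TPM or more in at least the number of libraries of the smallest group, with Benjamini-Hochberg adjustment over all genes tested and a threshold of 0.05. The method was tested on simulated data. Alternatives were a pseudocount of 0.1, no filter, a filter at 10 TPM, quantile normalization, the replicate number as a block, and leaving out each library. Leaving out the LPS libraries numbered 4 was added after seeing the data. The numbers were taken as pairs where every same-numbered pair of libraries deviated together with r over 0.1. After LPS r was 0.194 to 0.551 for Tdt+ with contralateral and 0.123 to 0.524 for Tdt+ with Tdt- libraries. Differently numbered LPS pairs had r of -0.406 to 0.166, with 7 of 36 over 0.1, so the lowest same-numbered r lay within their range. The block was fitted over all groups of a table, so it also joined Tdt- with contralateral LPS libraries, where r went down to 0.0741. This pairing comes from the data, since the labels do not explain the numbers. The members and lists were chosen with earlier results of these data known. List genes are named as the 2 largest rises and the 2 largest falls among those that passed, a few of which are not reported here, and likeness was ranked among genes averaging at least 10 TPM. Sequences are from RefSeq, GRCm38.p6.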

Additional observations from a re-analysis of the deposited data

Results flagged for a closer look

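In 5 of 100 sets tested, each 1 gene in 1 group of libraries, 1 library lay far from the others of its group. Chance alone flags about 5% of sets with normally distributed values, a rate that does not apply to Cd36 near 0. Cd36 was at 2.54 TPM in the day 28 contralateral library numbered 2, with the next at 0.400 TPM, and at 1.43 TPM in the day 28 Tdt- library numbered 3, with the next at 0.180 TPM. In the day 28 Tdt+ library numbered 2 Cd36 was at 0.160 TPM, and in the time course day 28 library numbered 3 at 0.550 TPM, with the other libraries of both groups listed at 0. In such a set any value above 0 is flagged. Mertk was at 222.6 TPM in the day 28 Tdt- library numbered 1, with the next at 192.8 TPM.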

How the results depend on the processing

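Over all alternatives 1 called difference of the 10 genes changed direction: Tyrobp at day 28 against day 3 was 0.12 after quantile normalization (adjusted p = 0.381). Differences that had not passed also changed sign there, such as Trem2 at day 28 against day 14 (-0.06, and 0.22 after quantile normalization). With the replicate number as a block, members called were 7 (Tdt+ minus contralateral), 2 (Tdt+ minus Tdt-) and 3 (Axl, Gas6 and Cd33 for Tdt- minus contralateral, where 1 pair had r of 0.0741 and the numbers were not taken as pairs) after LPS, with 930, 62 and 119 of all genes. In the LPS minus no LPS fits the block gave 5, 0 and 2 members (Trem2, Mertk, Gas6, Pros1 and Cd33 for Tdt+ minus contralateral) and 360, 4 and 43 genes. Elsewhere the numbers did not meet the rule for pairing (r 0.0328 to 0.166 at day 7, -0.00835 to 0.187 at day 28, -0.0314 to 0.0556 in the time course). Same-numbered pairs still had the higher median r at day 7 (0.0847 against -0.0408 for other pairs) and at day 28 (0.0579 against -0.0271). With the block 0 members passed at day 7 and at day 28. Outside the LPS libraries the block gave 27 genes (Tdt+ minus contralateral) and 1 gene (Tdt+ minus Tdt-) at day 7, and 0 members for day 14 minus day 7 and 1 for day 28 minus day 14. Without the LPS libraries numbered 4, Tdt+ minus contralateral gave 3 members and 333 genes, Tdt+ minus Tdt- 3 genes and Tdt- minus contralateral 5 genes; with the block as well these were 7 members and 642 genes, 10 genes, and 2 members and 84 genes. The LPS minus no LPS fit without them gave 2 members and 131 genes (Tdt+ minus contralateral) and 0 genes (Tdt- minus contralateral). With no filter the gene counts were 3, 1 and 0 at day 7 and 1, 2 and 2 at day 28 (Tdt+ minus contralateral, Tdt+ minus Tdt-, Tdt- minus contralateral), 1 for LPS Tdt- minus contralateral and 1 for LPS minus no LPS in Tdt+ minus Tdt-, and members called were 0 for day 14 minus day 7 and 1 for day 28 minus day 14. With a filter at 10 TPM they were 16 and 1 genes at day 7 (Tdt+ minus contralateral, Tdt+ minus Tdt-), 8 genes for LPS Tdt- minus contralateral, and 1, 2 and 1 members for LPS Tdt+ minus contralateral, day 14 minus day 7 and day 28 minus day 14. Quantile normalization gave 1 and 3 members for LPS Tdt+ minus contralateral and day 14 minus day 7, 11 genes for LPS Tdt- minus contralateral, 8 for the same difference in LPS minus no LPS, and 4047 for day 28 minus day 3. A pseudocount of 0.1 gave 0 genes for LPS Tdt- minus contralateral and 1 in LPS minus no LPS, and changed no call of a member. Leaving out 1 library at a time, members called ranged from 0 to 1 (LPS Tdt+ minus contralateral, with and without the day 28 libraries as baseline), 4 to 5 (day 7 minus day 3), 0 to 2 (day 14 minus day 7 and day 28 minus day 14) and 6 to 9 (day 28 minus day 3), and stayed at 0 in the other comparisons. All genes called ranged from 3 to 22, 1 to 6 and 0 to 5 at day 7, from 0 to 1 in each at day 28, and from 77 to 193, 0 to 1 and 0 to 25 after LPS, in the order Tdt+ minus contralateral, Tdt+ minus Tdt- and Tdt- minus contralateral. They ranged from 44 to 104, 0 to 2 and 1 to 15 in LPS minus no LPS, and from 1665 to 2206, 663 to 1160, 493 to 1070 and 5787 to 6382 in the time course steps and day 28 minus day 3. The causes were not tested. The number of libraries, 3 to 5 a group, and the unknown depth limit low genes such as Cd36.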
